A study of Homo sapiens with 11 samples.

Results

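CTCF summits were described at 36 genes that encode the loop extrusion and architectural machinery of chromosomes, out of 19974 protein-coding genes. The genes were taken from a fixed list: the cohesin ring and its germline paralogs, the factors that load, release and acetylate cohesin, condensin I and II, the SMC5/6 complex, and CTCF with its paralog and 4 other architectural factors, YY1, MAZ, PATZ1 and LDB1. A summit, the base at which a called peak is highest, belonged to a gene when it lay in the gene body or within 10 kb of it on hg38. All 36 genes were found in the gene table, and their windows held 45 of 19044 WT summits, 68 of 31112 deletion summits and 44 of 20810 rescue summits. The summits do not measure how much of each gene is expressed; they show where CTCF was called at these genes.

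The peaks came from CTCF CUT&RUN, in which a nuclease bound to an antibody cuts out the DNA around a protein, in cells derived from the human colorectal cancer line HCT116. WT cells are the p53-deficient line HCT116 p53-/- itself. The ORC2 deletion cells are 1 CRISPR/Cas9 clone of it, and the rescue cells are clonally selected cells given ORC2 on a plasmid with both of its UTRs, so all groups lack p53 and the genotypes differ by clone as well as by ORC2. CTCF and IgG libraries numbered 2 each per genotype, apart from the rescue IgG, with 1. Each genotype has 1 deposited CTCF list, taken as the pool of its libraries, so no value below has a spread between replicates and none was tested between genotypes.

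Cohesin is a ring of SMC proteins closed by a kleisin subunit that extrudes chromatin loops and holds sister chromatids together, and CTCF bound to DNA stops its movement. Condensin and SMC5/6 are related rings: condensin compacts mitotic chromosomes, and SMC5/6 acts in DNA repair and at stalled replication forks. In dividing epithelial cells such as HCT116 the mitotic forms are in use, whereas REC8, RAD21L1, SMC1B, STAG3 and CTCFL are known chiefly from the germline.

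Matches to the CTCF core motif in the promoters of these genes are shown first, since a summit near the start was in all lists at STAG1, in deletion alone at STAG2 and in WT alone at NIPBL. RefSeq's promoter table for GRCh38.p14 holds 300 bp, from 250 before to 50 after the start, for 30 of the 36 genes. Both strands were searched for the core of the CTCF motif, written CCA, 2 free bases, AG, 2 free bases and GGC, which 2.49% of all 27195 promoters hold. A looser core in which the A of CCA is free as well, so that every match to the first is also a match to it, is held by 10.7%. The first core was found at 1 of the 30 genes, STAG1, which had 2 matches, and the looser core at 4, STAG1, STAG2, NIPBL and REC8. Each line below runs 5′ to 3′ on the strand of its gene, with the match in capitals.

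STAG1 match before the start: gcaccgcggCCAGCAGAGGGCggtccggac
STAG1 match after the start: tggaaaatgCCACCAGATGGCgggttagga
STAG2: ggttcgtggCCGACAGATGGCgcctgcgcg
NIPBL: aggagagctGCCGCCTCCCGGctgctgggc
REC8: cgatctagtCCTGCAGTAGGCggcccgggg

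The STAG1 stretches lie at chr3:136752398-136752427 and chr3:136752340-136752369 (gene on the minus strand), with matches at -40 to -29 and at 18 to 29 bp from the start. The nearest summit stood 201 bp from the centre of the first match in WT, 335 bp in deletion and 346 bp in rescue. STAG2's stretch is chrX:123960514-123960543 (plus strand), with the match at -37 to -26 bp. Its nearest deletion summit was 290 bp away, while the nearest WT and rescue summits were 75620 and 75679 bp away. NIPBL's, chr5:36876587-36876616 (plus strand), carries the core on the strand opposite to the gene at -173 to -162 bp, 499 bp from a WT summit and 5829 and 5742 bp from deletion and rescue summits. REC8's, chr14:24172076-24172105 (plus strand), at 5 to 16 bp, had no summit nearer than 10798 bp in any list. Among all promoters, the first core was in 8.73% of the 1799 that held a summit of any list and in 2.05% of the others. For the looser core these shares were 26.0% and 9.56%. The windows of MAU2, PDS5A and PDS5B held a summit of at least 1 list and no match to either core. Those of STAG2, NIPBL and REC8 held a match to the looser core and no summit of any list.

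The genes' windows came to 3.66 Mb, with a median gene length of 45.7 kb against 24.2 kb over all protein-coding genes. Summit density was 12.3 per Mb in WT, 18.6 in deletion and 12.0 in rescue. Over the windows of all protein-coding genes, in which a summit can count for several genes, it was 10.0, 16.2 and 10.9. Deletion summits were 1.51 times as many as WT summits here (95% interval 1.04 to 2.20, counting error only) and 1.61 times over all genes. The whole deletion list was 1.63 times as long as the WT list, so the excess at these genes is near that of the list. With lists of equal length, the strongest 19044 summits of each, the ratio turned to 0.8 (0.518 to 1.24). This cut drops the weakest deletion and rescue summits and keeps all WT summits, weak ones too. With the full lists, rescue over WT was 0.978 (0.647 to 1.48), and 1.08 over all genes.

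At least 1 summit was found at 23 of the 36 genes in WT, 28 in deletion and 23 in rescue; over all protein-coding genes the shares were 50.4%, 63.7% and 52.0%. A summit in every list was found at 18 genes, 50.0% against 43.6% of all genes, and 7 genes, 19.4% against 32.9%, had none in any. More deletion than WT summits were held by 18 genes, 50.0% against 37.6%, fewer by 3, 8.33% against 4.27%, and as many by 15. With lists of equal length, 2 genes, CDCA5 and SMC6, held more (5.56% against 13.7% of all genes), 11 fewer (30.6% against 14.9%) and 23 as many. There the deletion list had lost its weakest summits and the WT list none. In rescue, 9 genes held more than WT (25.0% against 18.1%) and 9 fewer (25.0% against 13.0%). At least 2 more deletion than WT summits were held by 6 genes, 16.7% against 12.6%, and at least 2 fewer by 0, against 0.2%. No WT but at least 1 deletion summit was found at 6 genes, 16.7% against 15.2%, and 4 of these, CTCF, CDCA5, SMC2 and SMC5, had a rescue summit too, 11.1% against 6.49%. The converse, a WT summit and none in rescue, was found at STAG2, NCAPG, NCAPH2 and NSMCE1, 11.1% against 6.37%. SMC4 alone had a WT summit and none in deletion, 2.78% against 1.98%. The median difference per gene was 0.5 summits for deletion minus WT and 0 for rescue minus WT, and both medians were 0 over all genes. The part of the genes' greater length in these shares was not tested.

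**Figure D1:**
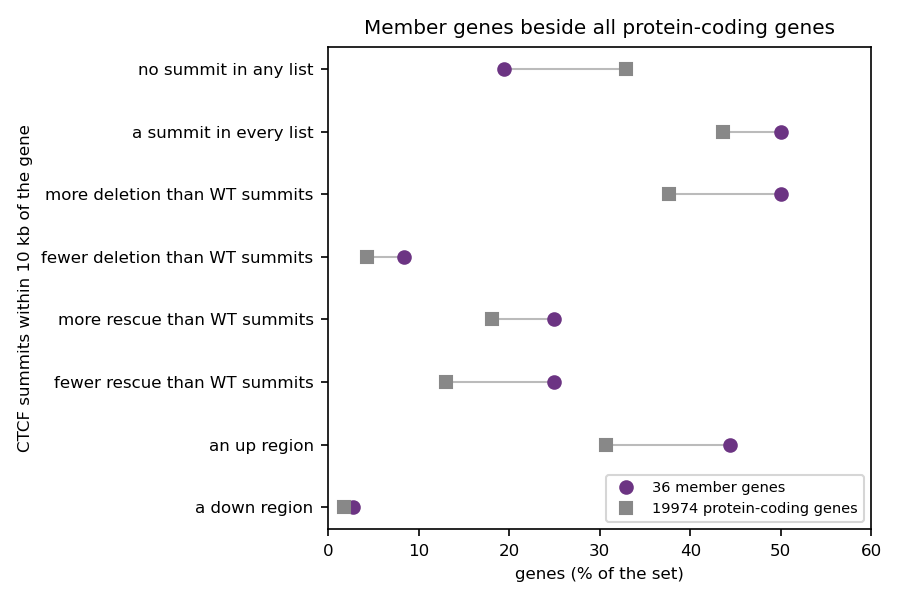
Share of genes (% of the set, x axis) that meet each rule on CTCF summits within 10 kb (y axis), for the 36 genes (circles) and all 19974 protein-coding genes (squares). Of the 8 rules shown, the widest gaps are for genes with no summit (19.4% against 32.9%) and genes with an up region (44.4% against 30.7%). The 36 genes are longer, with a median of 45.7 kb against 24.2 kb.

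**Figure D2:**
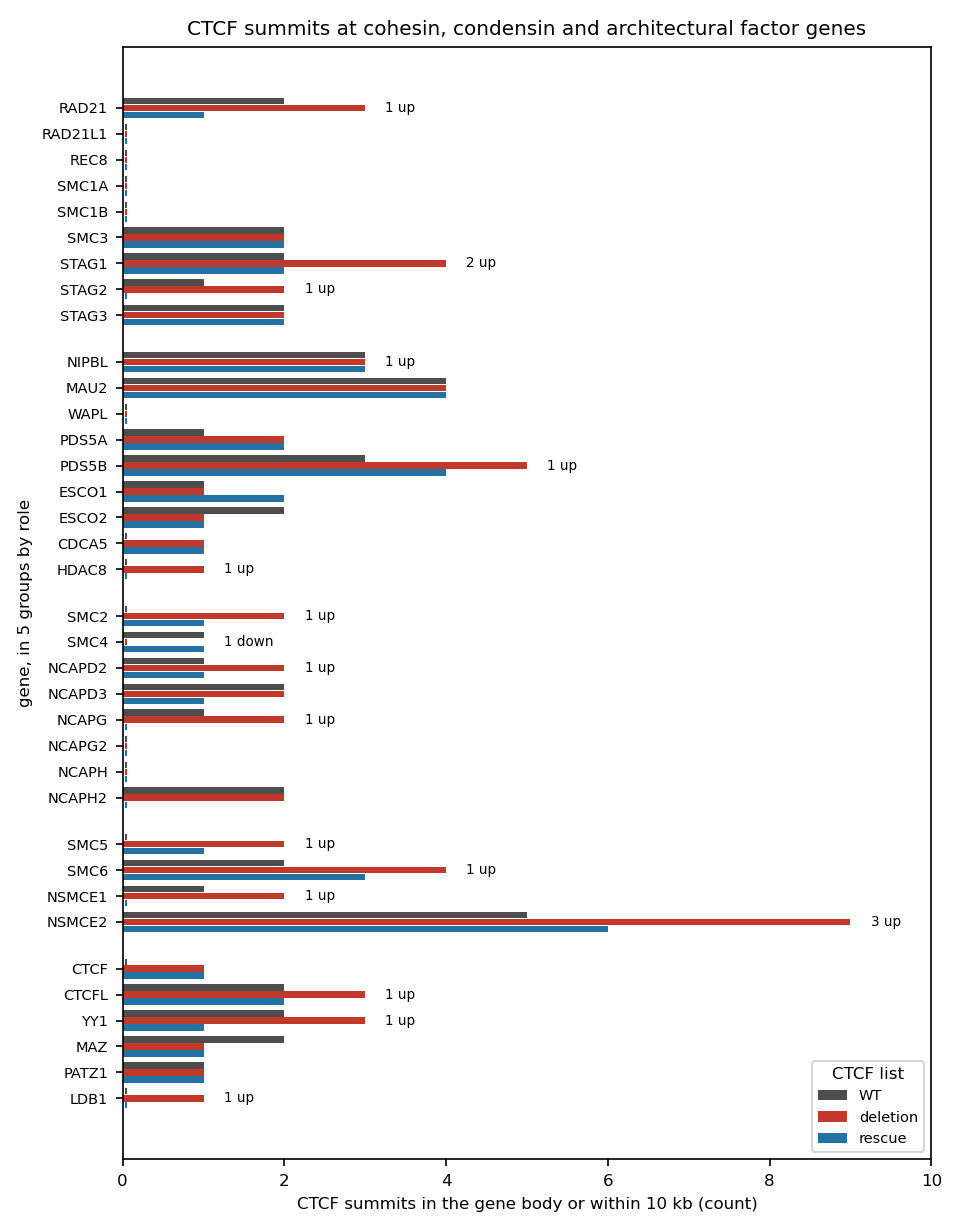
Number of CTCF summits in each gene's body or within 10 kb (x axis) in the WT, deletion and rescue lists (bars), with genes in 5 groups by role and a tick where the count is 0. Text beside the bars gives the regions of the authors' deposited up and down lists. NSMCE2 holds the most, with 5, 9 and 6, and 7 genes hold none.

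Among the cohesin ring genes, STAG1 had a summit near its start in all lists, whereas STAG2 had one there in deletion alone. The ring group with its germline paralogs, 9 genes, had 9 WT, 13 deletion and 7 rescue summits. Here and below, summits of different lists within 500 bp are described as the same summit or as partners. Some of them are separate sites when joined within 100 bp. STAG1 and STAG2 encode the alternative HEAT-repeat subunits through which cohesin meets CTCF. STAG1 (chromosome 3, 136336236 to 136752378) had a summit 235 bp before its start in WT (−log10 q 4.24), 369 bp before it in deletion (6.07) and 380 bp before it in rescue (3.65). A further one deep in the gene body, at 136391918 in WT, had values of 8.98, 8.80 and 5.99 in the same order. The deletion list alone added summits at 136743260 (2.48) and 6182 bp before the start (7.15), both in the authors' deposited up list. Thus STAG1 had 2, 4 and 2 summits, the called start being common to all lists. The authors' up and down lists do not name the groups they compare.

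STAG2 (chromosome X, 123960560 to 124102656) had 1 WT, 2 deletion and 0 rescue summits. The deletion summit 322 bp before its start (2.92) is in the authors' deposited up list. Near the gene's far end, summits stood at 124098090 in WT (3.72) and 124098435 in deletion (3.68), and the nearest rescue summit was 75711 bp from the gene. All 3 STAG2 values lie below the median of their lists.

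RAD21 encodes the mitotic kleisin that closes the ring. The gene (chromosome 8, 116845934 to 116874776) had 2, 3 and 1 summits. A summit inside it was in all lists, with values of 3.23 in WT, 3.98 in deletion and 3.32 in rescue. One at 116839881 in WT (1.84) and 116840053 in deletion (6.06) had no rescue partner within 11 kb. The deletion summit at 116836235 (8.28), 9699 bp outside the gene, is in the authors' deposited up list. SMC3, the ATPase that ESCO1 and ESCO2 acetylate, had 2 summits in each list. Those inside the gene, up to 255 bp apart, had values of 14.4, 12.9 and 12.7 in WT, deletion and rescue. Those beyond its far end had 10.5, 12.9 and 8.03. There the deletion and rescue summits lay 153 and 406 bp from the WT summit and 559 bp from each other. At 100 bp these are separate sites.

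The germline paralogs fell on both sides. STAG3 had 2 summits in every list. The one at 100190214 in WT was weak there (2.44, among the lowest 10% of the list), and its partners had 15.2 in deletion and 7.50 in rescue. The other had 13.4, 16.4 and 7.47. REC8, RAD21L1 and SMC1B had none in any list, and neither had SMC1A, the mitotic partner of SMC3.

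For 6 of the 7 genes without a summit, the nearest one stood outside the window at about the same place in all lists. It was 10788 to 10922 bp from REC8, 12838 to 12849 bp from RAD21L1, 13288 to 13615 bp from SMC1A and 22260 to 22318 bp from SMC1B. For NCAPH it was 30217 to 30314 bp away, and for WAPL, which releases cohesin from chromatin, 35376 to 35420 bp. NCAPG2 was the exception, at 272409 bp in WT, 78335 bp in deletion and 198179 bp in rescue. For these 6 genes the count of 0 thus depends on the 10 kb limit, and each had a summit within 50 kb in every list.

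Genes of cohesin loading, release and acetylation held 14 WT, 18 deletion and 17 rescue summits over 9 genes. NIPBL and MAU2 form the loader of cohesin. MAU2 (chromosome 19, 19320829 to 19358754) had the same 4 summits in every list. The one just before its start lay 230 bp away in WT (7.37), 181 bp in deletion (7.48) and 105 bp in rescue (4.51). The one in the gene body had values of 6.72, 14.6 and 8.85. Those beyond the gene's far end had 4.90, 9.02 and 10.6 for the nearer and 10.4, 21.4 and 8.32 for the farther. The farther was the one MAU2 summit in the top 10% of a list, deletion's. No pair of partners at MAU2 lay more than 130 bp apart.

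NIPBL (chromosome 5, 36876769 to 37066413) had 3 summits in each list, but not the same 3. Common to all were one about 6 kb before the start, with 7.27, 20.8 and 11.0 in WT, deletion and rescue, and one in the gene body, with 7.91, 10.4 and 7.53. Its remaining summit was 667 bp before the start in WT (3.02), at 37005985 inside the gene in deletion (6.66) and at 36909124 in rescue (2.12). Equal counts here covered different places, and the deletion one is in the authors' deposited up list.

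PDS5A and PDS5B encode paralogs that bind the ring and work with both WAPL and the acetyltransferases. PDS5B (chromosome 13, 32586452 to 32778019) had 3, 5 and 4 summits. Those in the gene body were in all lists, with 9.11, 7.27 and 6.12 at the first, 4.33, 5.36 and 3.92 at the next and 7.07, 14.8 and 7.57 at the last. A summit about 5 kb before the start was in deletion (4.21) and rescue (6.09) but not in WT. One 238 bp before the start was in deletion alone (8.11) and in the authors' deposited up list. PDS5A also had a summit near its start without WT, 220 bp before it in deletion (7.55) and 238 bp in rescue (6.18). Its other summit, 1228 bp after the start in WT, had 3.96, 5.52 and 4.18. Near both starts WT had no summit within 1 kb; PDS5A's was also in rescue and PDS5B's was not.

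**Figure D3:**
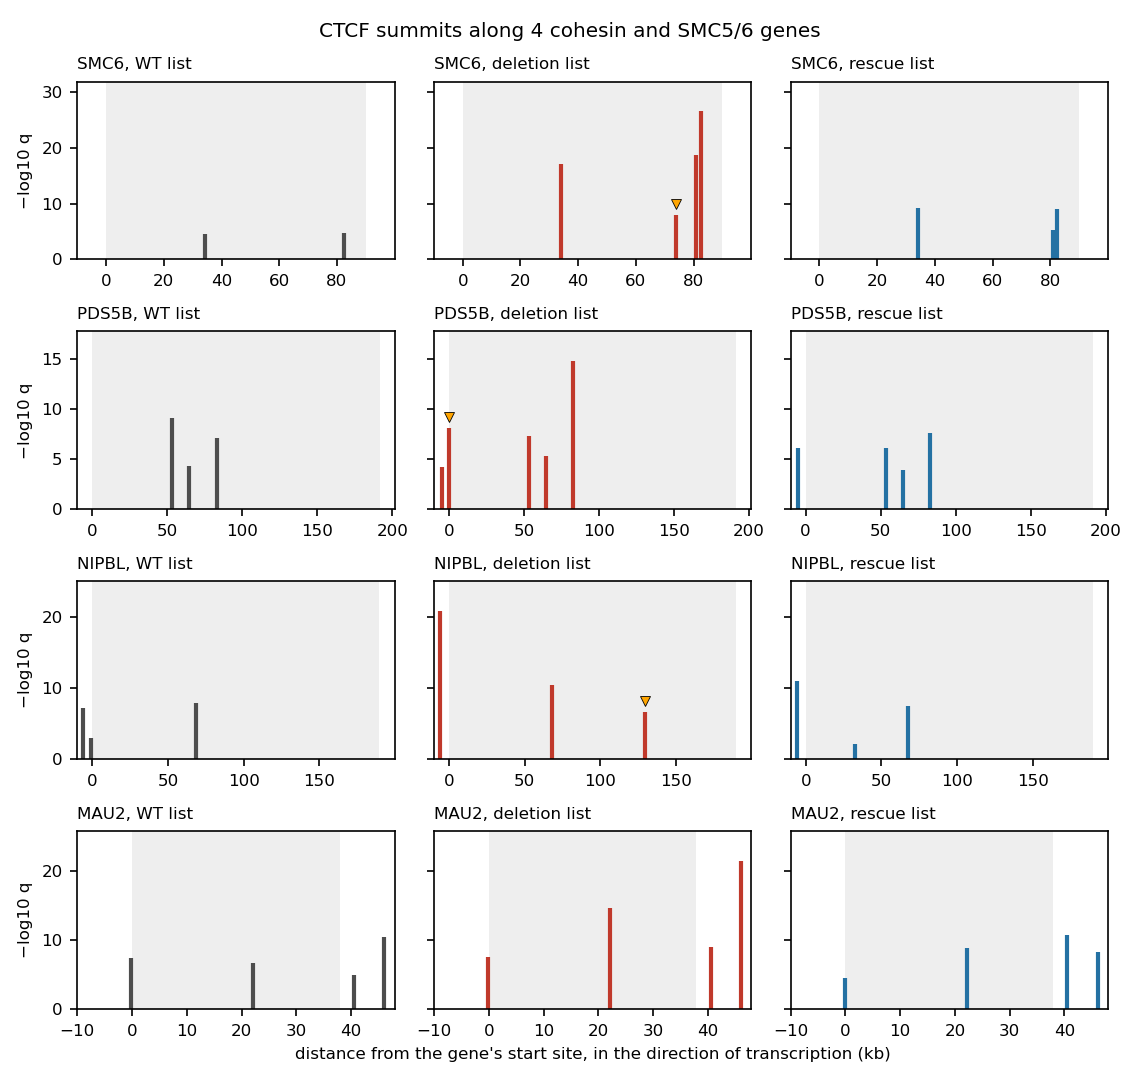
CTCF summits of the WT, deletion and rescue lists (columns) along SMC6, PDS5B, NIPBL and MAU2 (rows), with distance from the start site in kb on the x axis, the −log10 q of each summit as the height of its line and the gene body in grey. Triangles mark summits in up regions: 1 each at SMC6 (7.93), PDS5B (8.11) and NIPBL (6.66), and none at MAU2, whose 4 summits are in all lists.

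HDAC8, which removes the acetyl group from SMC3, had a single summit, in deletion (72554922 on chromosome X, 4.83), inside an up region of the authors' deposited list. CDCA5, or sororin, which protects cohesin from WAPL, had one inside the gene in deletion (10.3) and rescue (9.42) and none in WT. ESCO1 had 1, 1 and 2 summits, all at its upper end, with values of 3.80 to 5.93. ESCO2 had 2, 1 and 1. Its summit inside CCDC25 was in all lists (7.88, 10.7 and 10.3), and the one in its own body was in WT alone (6.60). That WT summit was not in the authors' deposited down list.

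Among condensin genes, 8 in all with 7 WT, 10 deletion and 4 rescue summits, SMC4 carried the one down region. SMC2 and SMC4 are the ATPases of both condensins. SMC4 (chromosome 3, 160399650 to 160434953) had 1 summit inside the gene in WT (160413969, 8.29) and rescue (160413995, 4.52), and none in deletion, whose nearest summit was 51722 bp from the gene. It is in the authors' deposited down list, in which all 364 regions hold a WT and a rescue summit and 0 hold a deletion summit, so its return in rescue is no separate result. A down region was present at 1 of 36 genes, 2.78% against 1.72% of all genes.

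SMC2 (chromosome 9, 104088263 to 104141419) went the other way, with 0, 2 and 1 summits. The deletion summit at -508 bp from its start (2.93) is in an up region of the authors' deposited list. The other lay before the 5′ end of the gene body, 308 bp outside it in deletion (2.43) and 409 bp in rescue (2.21). It ranked at 95.9% of both lists, counted from the strongest. The start placed for SMC2, at 104094309, lies inside the gene body. All SMC2 values are in the lowest 10% of their lists.

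NCAPD2, a HEAT subunit of condensin I, had a summit just before its start in all lists, 435 bp away in WT (6.97), 540 bp in deletion (10.2) and 637 bp in rescue (3.36). Its up region in the authors' deposited list lies in GAPDH, the neighbouring gene (2.66). NCAPG, also of condensin I, had 1, 2 and 0 summits. One lay inside the neighbouring DCAF16 in WT (7.69) and deletion (4.43), and the one in its own body (4.37) was in deletion alone and in the authors' deposited up list. The nearest rescue summit was 261811 bp from NCAPG.

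The condensin II genes NCAPD3 and NCAPH2 had no up or down region. NCAPD3 had a strong summit in all lists (11.9, 15.7 and 13.6) and a weak one near its start in WT (2.12) and deletion (1.60). NCAPH2 had 2 summits in WT (2.84 and 3.04), their partners in deletion (5.41 and 2.54) and none in rescue, where the nearest was 51304 bp away. It was the one gene of the list whose rescue count differed from WT by 2 or more, against 3.0% of all genes with at least 2 more and 1.58% with at least 2 fewer.

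The SMC5/6 complex was the one group in which every gene held more deletion than WT summits and an up region of the authors' deposited list, 4 of 4, where 37.6% and 30.7% of all genes did. All 9603 up regions hold a deletion summit and 0 hold a WT summit, so these counts overlap and are not separate results. With lists of equal length the difference was 0 at SMC5, NSMCE1 and NSMCE2 and 2 at SMC6, and NSMCE1 also had a difference of 0 in the gene body alone or with a 5 kb flank. The group had 8 WT, 17 deletion and 10 rescue summits, with 6 of its deletion summits in up regions, where 30.9% of all deletion summits are. Its genes were long, with a median of 92.9 kb. The genes of 1 complex are not replicates of each other, and no test was made of this group. NSMCE2, a SUMO ligase of the complex, accounted for 5, 9 and 6 of these summits. Without it, the ratio of deletion to WT summits over the other 35 genes was 1.48 (0.990 to 2.20), not 1.51.

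SMC6 (chromosome 2, 17663812 to 17753810), an ATPase of the complex, had 2, 4 and 3 summits, all inside the gene. The one at 17671284 in WT had 4.72 there, 26.6 in deletion and 8.96 in rescue, which placed it at 66.0%, 5.54% and 32.6% of those lists, counted from the strongest. A summit at 17672944 in deletion (18.6) had a rescue partner (5.26) and no WT summit within 1.6 kb. The one at 17719526 in WT had 4.51, 17.1 and 9.18. One at 17680055 was in deletion alone (7.93) and in the authors' deposited up list. Values are not scaled between lists and the depth is unknown, so the order of these values cannot be read as an order of binding.

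NSMCE2 (chromosome 8, 125091860 to 125367120) had its strongest summit at 125338052 in deletion (29.5), with 10.7 in WT and 21.3 in rescue. It lies in the top 10% of the deletion and rescue lists, and the next one described in the top 10% of the WT list. At 125118656 the summit fell on the same base in WT (15.8) and deletion (11.0), with 15.8 in rescue 75 bp away. Summits of deletion and rescue without WT stood at 125259773 and 125289247 in deletion (8.70 and 6.25), with rescue partners (6.84 and 2.63) and no WT summit within 28 kb. Those in up regions of the authors' deposited list, at 125253318, 125278753 and 125357726, were weak, with 2.94, 1.56 and 2.10. The WT summit at 125125967 (7.61) had no partner within 7 kb in either of the other lists.

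SMC5, the partner ATPase, had 0, 2 and 1 summits. The one at 70340604 in deletion (5.67) had a rescue partner 207 bp away (2.23), and the one at 70318126 (4.62) was in deletion alone and in the authors' deposited up list. NSMCE1, a RING subunit, had 1, 2 and 0. One in its body was in WT (4.90) and deletion (5.98), and one 5283 bp before its start was in deletion alone (10.1), the highest value of all up summits at the 36 genes. It too is in the authors' deposited up list.

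CTCF and the other architectural factors, 6 genes, had 7 WT, 10 deletion and 6 rescue summits. At CTCF itself (chromosome 16, 67562526 to 67639177) no summit of any list lay in the gene body. One stood 5666 bp beyond its far end, on the same base in deletion (5.48) and rescue (4.17), and the nearest WT summit was 13905 bp from the gene. It is in neither deposited list of the authors. CTCFL, the germline paralog with a like set of zinc fingers, had more. Its intragenic summit at 57514296 on chromosome 20 reached 17.4 in the WT list, 26.8 in the deletion list and 10.1 in the rescue list, and was in the top 10% of the WT and deletion lists but not of the rescue list. One just beyond its far end had 6.91, 17.6 and 8.71. The CTCFL summit at 57498774 (3.49) was in deletion alone and in the authors' deposited up list.

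YY1, a zinc finger factor that bridges enhancers and promoters, had 2, 3 and 1 summits. The one inside the neighbouring SLC25A29 was in all lists (9.01, 11.8 and 7.35). One in the gene body was in WT (3.32) and deletion (5.17), and one at 100271184 (2.01) in deletion alone and in the authors' deposited up list. MAZ, a zinc finger factor found beside CTCF at insulators, had its strongest summit 5102 bp outside the gene in PAGR1. Its values were 18.6, 19.3 and 16.9 in the WT, deletion and rescue lists, and it was in the top 10% of the WT and rescue lists. A summit 1458 bp after the MAZ start was in WT alone (5.77) and not in the authors' deposited down list. PATZ1 had 1 summit in each list (4.52, 4.18 and 3.21), all within 97 bp. LDB1, which joins distant enhancers through its dimers, had 1 in deletion (6.10), 740 bp outside the gene and in the authors' deposited up list, and none in WT or rescue.

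Over all 36 genes, the authors' deposited up list, of 9603 regions, placed 19 regions at 16 genes, 44.4% against 30.7% of all protein-coding genes. The down list, of 364 regions, placed 1. More than 1 up region was found at STAG1 and NSMCE2, 5.56% of the genes against 7.97%. As a share of sites, joined from summits within 100 bp, 19 of 95 were up, 20.0% (95% Wilson interval 13.2 to 29.1, counting error only) against 21.9% of all sites, and 1 was down, 1.05% against 0.833%. As a share of deletion summits, 19 of 68 were up, 27.9% against 30.9%. The share of genes with an up region is thus above that of all genes, whereas the shares of sites and of summits are near those of all sites and summits. Up regions numbered 19 in the 3.66 Mb of these genes' windows. The 1693 Mb of all genes' windows held 8338, where a region can count for several genes. The part of the genes' greater length, a median of 45.7 kb against 24.2 kb, in the share of genes was not tested. Of the 19 up summits, 12 lay inside their gene and 7 in the flanks. Their median −log10 q was 4.37 (range 1.56 to 10.1), and that of the other 49 deletion summits at these genes was 9.02 (1.60 to 29.5). All 9603 up regions hold a deletion summit and 0 hold a WT or rescue summit, so the up summits at these genes say nothing of reversal.

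**Figure D4:**
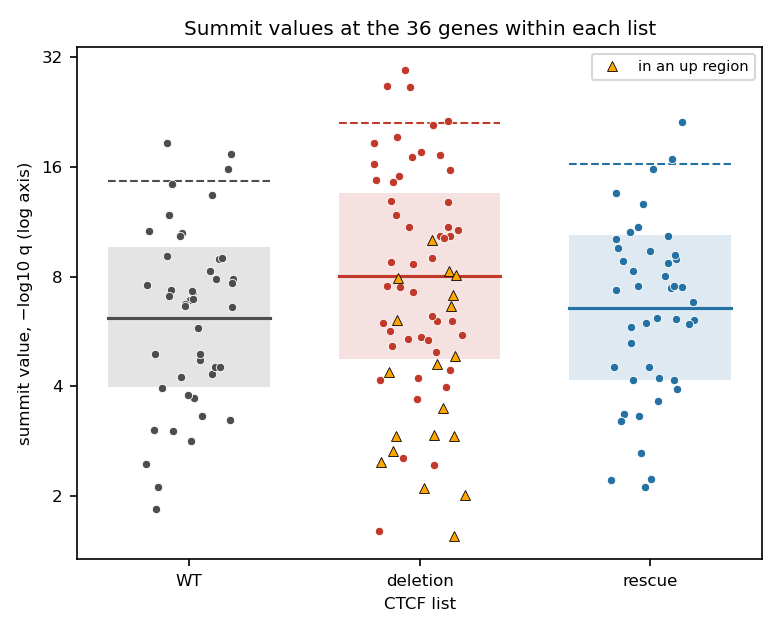
−log10 q of every CTCF summit at the 36 genes (points, log axis) in each list, with up summits as triangles. The band, solid line and dashed line give the middle 50%, the median and the start of the top 10% of the whole list. The triangles run from 1.56 to 10.1, below the dashed line at 21.1.

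Start sites could be placed for 30 of the genes. A summit within 1 kb of the start was found at 4 genes in the WT list, 7 in the deletion list and 4 in the rescue list, or 13.3%, 23.3% and 13.3%. Over 15812 protein-coding genes with a placed start the shares were 11.2%, 17.3% and 9.82%. STAG1, MAU2 and NCAPD2 were in all lists. NIPBL was in WT alone, PDS5A in deletion and rescue, and STAG2, PDS5B and SMC2 in deletion alone. These last 3 are also the genes with an up summit within 1 kb of the start, 10.0% against 6.89%. For SMC2 this depends on the start used. Its deletion and rescue summits 308 and 409 bp before the gene body's 5′ end do not count here. The Wilson interval of the deletion share, 11.8 to 40.9%, holds the 17.3% of all genes.

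In strength the genes' summits stood near the middle of their lists. The median −log10 q was 6.91 in WT against 6.18 for the whole list, 7.21 in deletion against 8.06 and 7.09 in rescue against 6.58. Of the summits, 3 in WT, 4 in deletion and 2 in rescue were in the top 10% of the list, or 6.67%, 5.88% and 4.55%, at CTCFL, MAU2, SMC6, NSMCE2 and MAZ. The highest value at these genes, 29.5 at NSMCE2 in deletion, ranked at 4.16% of its list, counted from the strongest.

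Of the 45 WT summits at these genes, 29 had a deletion summit within 100 bp, 64.4% (Wilson interval 49.8 to 76.8), against 60.6% of all WT summits. In rescue 22 did, 48.9% (35.0 to 63.0), against 51.1%. Within 500 bp the shares were 88.9% in deletion and 73.3% in rescue, against 89.5% and 76.2%. WT summits with partners in both other lists within 500 bp numbered 32, at 18 genes. Partners lay a median of 99.5 bp apart at their farthest, so a distance of 100 bp splits many of them.

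Joined within 500 bp, the summits at these genes made 74 sites. All 3 lists held 32 of them, 43.2% against 40.6% of all sites, and deletion alone held 19, 25.7% against 27.3%. Rescue alone held 1, 1.35% (Wilson interval 0.239 to 7.27) against 5.0% of all sites, the NIPBL summit at 36909124. Deletion and rescue without WT held 9, 12.2% against 13.0%.

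The 10 kb limit fell between NCAPH2, with a WT summit 9571 bp outside the gene (2.84), and NCAPD3, with one at 10269 bp (6.76) that was left out. In deletion the nearest on either side were at RAD21 (9699 bp, 8.28) and NCAPD3 (10189 bp, 17.5), and in rescue at MAU2 (8136 bp, 8.32) and NCAPD3 (10046 bp, 8.56). The summit left out at NCAPD3 was thus in all lists.

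No IgG summit of any list lay in a window of the 36 genes, and the nearest was 4755309 bp from a CTCF summit at MAZ. The IgG lists held 17 WT, 34 deletion and 33 rescue summits in all. Inside ORC2, the targeted gene, the WT, deletion and rescue lists placed 1, 4 and 4 CTCF summits, and the IgG lists 0, 2 and 2. Peak lists cannot show whether ORC2 was lost. Nor do they hold expression values, by which the labelled cell line could be compared with its markers.

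Of 39 other genes of these pathways, 19 held more deletion than WT summits (48.7% against 37.6% of all genes), 2 fewer (5.13% against 4.27%) and 18 as many. An up region of the authors' deposited list was found at 14 (35.9% against 30.7%) and a down region at 1 (2.56% against 1.72%), AURKB, the mitotic kinase, with 1, 0 and 1 summits in WT, deletion and rescue. MCPH1, which restrains condensin II, had 2, 4 and 4, and SLF2, which ties SMC5/6 to damaged DNA, 2, 4 and 3. SGO2, a shugoshin that protects cohesin at centromeres, had 0, 3 and 2. Genes of the nuclear lamina were LMNA, with 5, 7 and 7, LMNB1, with 1, 3 and 1, LMNB2, with 0, 0 and 1, and LBR, with 0, 2 and 0. The LMNB1 and LBR additions in deletion were 2 up regions each in the authors' deposited list, whereas LMNA and LMNB2 had none.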

How the data were processed

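CTCF and IgG CUT&RUN had 11 libraries in 6 groups. Per the submitters' processing notes, FastQC 0.11.5, Bowtie2 2.2.9, SAMtools 1.12 and MACS2 (version not given) were used on hg38. How peaks were called, how duplicates and IgG were handled, and whether libraries were pooled is not given in the sources used here. Each entry of a deposited summit file is a single base with the peak caller's −log10 q, which is unscaled between lists: values of several lists are each list's own, and none was tested between lists. Depth is unknown. Regions that the authors deposited as up or down have a start and an end only, and the groups compared are not named.

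Coordinates were made 1-based. Gene bodies, strands, starts and promoter sequences came from RefSeq tables for GRCh38.p14. All 2052 overlapping pairs of promoters on opposite strands had matching sequence. Summits were counted per gene window, matched within 100 bp and joined within 100 bp into sites. In the descriptions of single genes, partners are summits of different lists within 500 bp. Shares have 95% Wilson intervals, which cover counting error only; for a ratio the interval comes from that of the share. The members, gene lists and rules were chosen with earlier results of these data known. Genes given in full had an up or down region, a difference of 2 or more summits from WT, or a summit in the top 10% of a list. Counting and matching were tested on simulated data. Alternatives were other flanks, distances, −log10 q minimums, equal list lengths and summits away from IgG. For equal lengths the strongest 19044 summits of each list were kept, which is the whole WT list. Leaving out NSMCE2, and the counts of genes with more or fewer summits under each alternative, were chosen after seeing the data. Peak sequences were not analysed here. Python 3.11.15, NumPy 2.4.6, pandas 2.3.3 and matplotlib 3.10.9 were used.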

Additional observations from a re-analysis of the deposited data

How the results depend on the processing

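Of 111 values under alternative settings, 81 stayed within 1.5 times the count or within the interval given, 29 moved and 1 turned. With lists of equal length, deletion over WT was 0.8, on 36 deletion summits at 18 genes, where the whole lists have a ratio of 1.0 by construction; 46.7% of WT summits then had a deletion partner, and 2 genes had more and 11 fewer deletion than WT summits. With −log10 q of at least 5, WT had 27 summits at 15 genes. With at least 10, WT had 9 summits at 7 genes, deletion 25 at 15 and rescue 9 at 8, and deletion over WT was 2.78, against 2.76 for the whole lists; 0 genes then had fewer deletion than WT summits. Gene bodies alone held 28 WT, 41 deletion and 28 rescue summits, with more deletion than WT at 11 genes. Flanks of 50 kb held 91, 142 and 96, with an up region at 26 genes against 53.3% of all genes. Within 50 bp, 40.0% of WT summits had a deletion and 31.1% a rescue partner, and within 500 bp 88.9% and 73.3%. Within 2 kb of the start, 7 genes had a WT, 8 a deletion and 4 a rescue summit. These were 23.3%, 26.7% and 13.3%, against 13.9%, 21.3% and 12.7% of all genes with a placed start. The looser motif core was at 4 genes. Of 252 differences per gene (deletion minus WT), 159 kept their value. Those of 2 or more fell to 0 with lists of equal length at STAG1, PDS5B, SMC2, SMC5 and NSMCE2, and SMC6 kept 2. With −log10 q of at least 10 they were 0 at STAG1, SMC2 and SMC5, 1 at PDS5B, 2 at NSMCE2 and 3 at SMC6. Of the differences of 2 or more, 0 changed sign. Differences of 1 did: with lists of equal length 4 turned from 1 to -1, at RAD21, STAG2, NCAPG and YY1, NCAPG also did with −log10 q of at least 5, and ESCO2 turned from -1 to 1 with at least 10. No paired analysis was possible because the CTCF lists are 1 per genotype and carry no replicate number, and no replicate could be left out. Unknown depth limits every absence: a summit not called is not a site without CTCF.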
